A study of Mus musculus with 8 samples.

Results

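The 10 genes described here encode the microsomal omega-oxidation of fatty acids in mouse liver. They are 6 Cyp4a genes (Cyp4a10, Cyp4a12a, Cyp4a12b, Cyp4a14, Cyp4a31 and Cyp4a32), 3 Cyp4f genes (Cyp4f13, Cyp4f14 and Cyp4f15) and the fatty aldehyde dehydrogenase gene Aldh3a2. They were taken by gene symbol, and all 10 were found among the 27179 genes of the table. Poly-A RNA was sequenced from the livers of adult male C57BL/6NHsd mice after a 6 h fast, 4 of them wild-type (V227) and 4 homozygous for the V227A allele of Ppara. The V227A line came from base editing, and 1 heterozygous founder was backcrossed to C57BL/6NHsd. Both groups share the strain, the sex and the fast. The labels do not say how the 4 mice of a group are related.

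The values used here are averages over the 8 libraries together. The question of the design, whether V227A changes these transcripts, was not analysed here. The table holds no value per library, and its columns of the authors' own comparison of the genotypes were left unused. No level below belongs to a single mouse or genotype, no spread between mice can be given, and a gene that differs between the genotypes is listed at a level between its 2 group levels. The intervals cover counting error only.

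Omega-hydroxylation is the oxidation of a fatty acid at the carbon farthest from its carboxyl group. Cyp4 enzymes are cytochromes P450 of the endoplasmic reticulum that take electrons from NADPH-cytochrome P450 reductase and place a hydroxyl group at that carbon. Alcohol and aldehyde dehydrogenases then turn the alcohol into a dicarboxylic acid, which is shortened in peroxisomes. Cyp4a10 and Cyp4a14 are classical target genes of PPARɑ in liver and rise in fasting. Cyp4a12a is an arachidonic acid hydroxylase with a male-biased level, and Cyp4f enzymes act on leukotrienes, very long-chain fatty acids and the side chain of vitamin E. Aldh3a2 oxidises long-chain fatty aldehydes, and loss of the human gene causes Sjögren-Larsson syndrome.

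The Cyp4a members lie in 1 cluster on chromosome 4 of GRCm38, at chr4:115299046-115622507, a span of 323 kb in the RefSeq annotation. Cyp4a14 is on the minus strand and the other 5 are on the plus strand. The Cyp4f members lie within 262 kb at chr17:32685631-32947415, with Cyp4f15 on the plus strand and Cyp4f13 and Cyp4f14 on the minus strand. Aldh3a2 stands alone at chr11:61223417-61267528 on the minus strand. Cyp4a12a and Cyp4a12b each overlap an annotated pseudogene, and Cyp4a14 overlaps the long noncoding RNA gene Gm52676. None of these 3 neighbours is listed in the table.

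Each of these enzymes works through a catalytic cysteine. In a P450 this cysteine holds the haem iron, and in Aldh3a2 it attacks the aldehyde. The windows below are 30 coding bases of the reference mRNA, 5′ to 3′, with the cysteine codon in capitals. They are printed to compare the Cyp4 transcripts at this site, beside the unrelated Aldh3a2.
Cyp4a10: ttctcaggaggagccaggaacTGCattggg
Cyp4a12a: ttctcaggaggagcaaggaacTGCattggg
Cyp4a14: ttctcaggaggatcaaggaacTGCattggg
Cyp4f13: ttctcagcggggaccaggaacTGCatagga
Cyp4f14: ttctcggcgggacccaggaacTGCatagga
Cyp4f15: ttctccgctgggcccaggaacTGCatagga
Aldh3a2: tacatgaattgtggtcaaaccTGCattgct
The window of Cyp4a10 is identical in Cyp4a31 and Cyp4a32, and that of Cyp4a12a is identical in Cyp4a12b. Between Cyp4a10 and Cyp4a14 it differs at 2 bases, among the 3 Cyp4f genes at 3 bases in each pair, and between Cyp4a and Cyp4f genes at 6 to 8. The cysteine is residue 456 in Cyp4a10, 454 in Cyp4a14, 468 in Cyp4f14 and 241 in Aldh3a2. In the Cyp4 genes the window runs over a junction between exons, from exon 11 to exon 12 or, in Cyp4f13 and Cyp4f15, from exon 12 to exon 13. The genomic ends of the Cyp4a10 window are chr4:115529502-115532543 (plus strand) and include the intron, which is not printed. The Aldh3a2 window lies within exon 5 at chr11:61258810-61258839 (minus strand).

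Over the whole coding sequence the Cyp4a members fall into near-identical groups. Cyp4a12a and Cyp4a12b were identical at 98.5% of 1524 aligned bases, with 23 differences and an identical run of 342 bases. Cyp4a10 was identical to Cyp4a32 at 97.2% and to Cyp4a31 at 96.6% of 1527 bases, and Cyp4a31 to Cyp4a32 at 96.0%. The other 11 Cyp4a pairs lay between 76.0% and 80.6%, and Cyp4a14 had no close copy. The 3 Cyp4f pairs lay between 77.8% and 82.1%, and the 18 pairs of a Cyp4a with a Cyp4f gene between 63.7% and 66.5%.

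**Figure D1:**
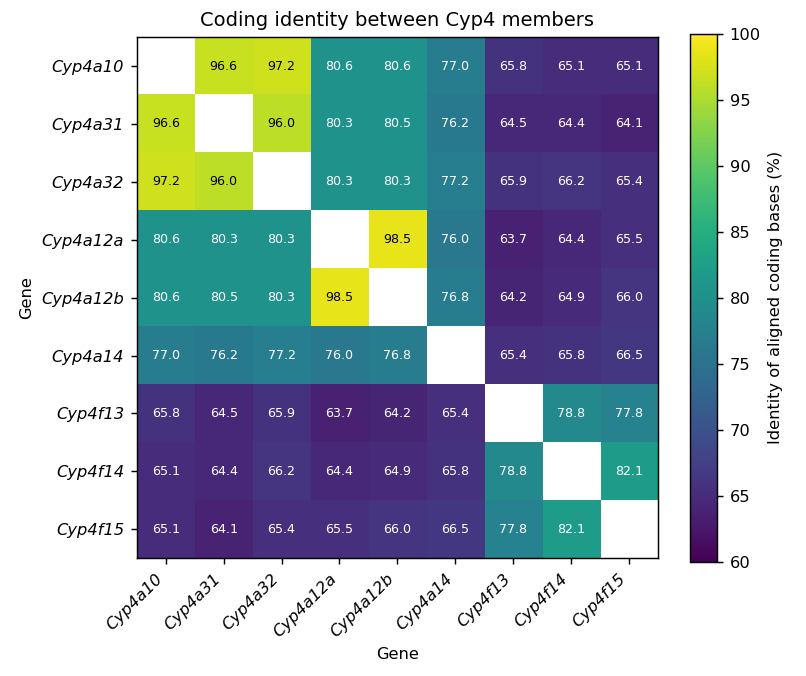
Identity of the aligned coding bases, in percent, for every pair of the 9 Cyp4 members (rows and columns are genes, and colour gives the identity). The bright blocks are Cyp4a10 with Cyp4a31 and Cyp4a32 (96.0% to 97.2%) and Cyp4a12a with Cyp4a12b (98.5%).

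Within the coding sequence, the bases that tell the near-identical genes apart are few and unevenly placed. They number 23 of 1524 bases between Cyp4a12a and Cyp4a12b, and 77 of 1527 among Cyp4a10, Cyp4a31 and Cyp4a32. The noncoding ends were not compared in this way. The 60-base coding windows with the most differences are printed below, because reads can be assigned to 1 of the copies only through such bases. Capitals mark bases at which at least 1 gene of the group differs. Most capitals in the first 3 windows set Cyp4a32 apart from Cyp4a10 and Cyp4a31, which are alike there.
Cyp4a10: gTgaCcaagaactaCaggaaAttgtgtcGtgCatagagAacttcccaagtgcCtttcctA
Cyp4a31: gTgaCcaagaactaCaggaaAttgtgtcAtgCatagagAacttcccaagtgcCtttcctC
Cyp4a32: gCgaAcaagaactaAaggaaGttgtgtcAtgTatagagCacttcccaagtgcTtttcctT
Cyp4a12a: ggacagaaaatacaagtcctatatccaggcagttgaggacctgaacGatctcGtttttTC
Cyp4a12b: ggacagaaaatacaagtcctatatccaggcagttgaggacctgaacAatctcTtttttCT
The first 3 windows are coding bases 200 to 259 in exon 2, at chr4:115519640-115519699 in Cyp4a10, chr4:115565020-115565079 in Cyp4a31 and chr4:115602270-115602329 in Cyp4a32, and 9 bases vary among them. The Cyp4a12a and Cyp4a12b windows are coding bases 624 to 683 in exons 5 and 6, and only 4 bases differ. Their genomic ends, intron included, are chr4:115326309-115326681 and chr4:115432561-115432934. Of 25 such windows laid end to end, 12 hold no difference between Cyp4a12a and Cyp4a12b. In Cyp4a10, Cyp4a31 and Cyp4a32, 3 windows hold no difference among all 3 genes, and a single pair may be alike in more. Cyp4a10 differs from Cyp4a32 at 43 coding bases and from Cyp4a31 at 52, and Cyp4a31 from Cyp4a32 at 61.

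All 10 genes had reads. The average log2 CPM (a log2 level set relative to each library's total) was converted to estimated reads per library at a mean effective library size of 27474000 reads, and the members together held 69410 reads per library, 0.252% of all reads (Wilson 95% interval 0.252% to 0.253%). The Cyp4a genes took 72.2% of the members' reads, the Cyp4f genes 17.3% and Aldh3a2 10.5%. Cyp4a10 and Cyp4a14 alone made up 53.7%. Ranked by average log2 CPM, 9 of the 10 were in the top 10% of the 18937 genes with reads, a class that by construction holds that share of them.

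**Figure D2:**
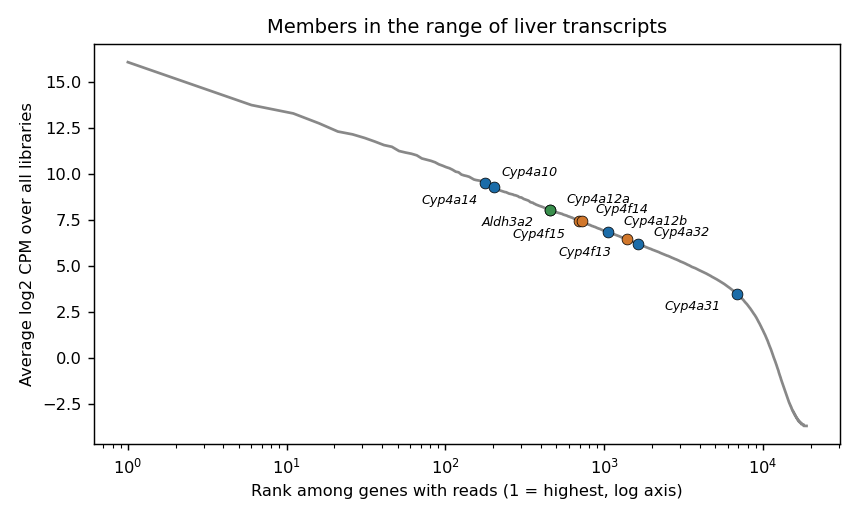
Average log2 CPM over the 8 libraries (vertical axis) against the rank among genes with reads (horizontal log axis), with all genes as the grey line and the members as points (blue Cyp4a, orange Cyp4f, green Aldh3a2). The members run from rank 177 (Cyp4a10) to rank 1622 (Cyp4a32), and Cyp4a31 stands apart at rank 6870.

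Levels of different genes are compared per kilobase of the longest annotated transcript. The length over which the authors counted reads is not known. Their annotation is not stated, and Cyp4f13, for example, has 14 annotated transcripts. Cyp4a10 was the highest member, with an average log2 CPM of 9.52, 20181 estimated reads per library and 9569 reads per kb (95% Poisson interval 9522 to 9616). Cyp4a14 followed, with an average log2 CPM of 9.28 and 6835 reads per kb (6798 to 6871). These genes ranked 177 and 201 of all genes with reads. A range given after a ratio divides opposite ends of the counting intervals, and is not a 95% interval of the ratio. Cyp4a10 was 1.40 times Cyp4a14 per kb (1.39 to 1.41), 1.18 times per kb of coding sequence and 1.99 times per kb of length not shared with another gene over 50 bases.

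Cyp4a12a had an average log2 CPM of 8.06 and 3031 reads per kb, and Cyp4a12b had 6.85 and 1322 reads per kb. Cyp4a12a was thus 2.29 times its near-identical neighbour (2.25 to 2.34). Their lengths and shared parts are nearly equal, so that another length leaves this ratio as it is, and it depends on how reads were assigned between the copies. Together the 2 genes held 15.1% of the members' reads.

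Cyp4a10, Cyp4a32 and Cyp4a31, which are alike at 96.0% or more of their coding bases, were listed at very unequal levels. Cyp4a32 had an average log2 CPM of 6.22 and 1338 reads per kb, and the level of Cyp4a10 was 7.15 times that (7.01 to 7.30), 9.86 times by coding length and 5.72 times by unshared length. Cyp4a31 had an average log2 CPM of 3.49, 306 reads per library and 122 reads per kb (117 to 127). Cyp4a10 was 78.4 times (75.0 to 82.0) and Cyp4a32 10.9 times (10.4 to 11.6) the level of Cyp4a31. By coding length these ratios were 65.9 and 6.68, and by unshared length 88.7 and 15.5. Cyp4a31 was the only member outside the top 10%, in the top 36.3% of genes with reads. The annotated Cyp4a32 transcript, 1530 bases long, holds almost nothing but coding sequence, so its level per kb rests on a shorter annotated length than those of members with annotated noncoding ends.

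Aldh3a2 had an average log2 CPM of 8.05 and 2363 reads per kb (2344 to 2382), ranked 456. It was the fourth highest member per kb, with Cyp4a10 at 4.05 times and Cyp4a14 at 2.89 times its level. The ratio to Cyp4a10 was 2.89 by coding length and 5.77 by unshared length.

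The Cyp4f genes were closer to each other than the Cyp4a genes were. Cyp4f14, a vitamin E and leukotriene hydroxylase, had an average log2 CPM of 7.47 and 2191 reads per kb. Cyp4f15 had 7.43 and 2186 reads per kb. Their intervals overlap, and the ratio of Cyp4f15 to Cyp4f14 was 0.997 (0.978 to 1.02). Cyp4f13 had an average log2 CPM of 6.45 and 1370 reads per kb, and Cyp4f15 was 1.60 times higher (1.56 to 1.63). The range within Cyp4f, 1370 to 2191 reads per kb, compares with 122 to 9569 within Cyp4a.

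In order of reads per kb the members were Cyp4a10, Cyp4a14, Cyp4a12a, Aldh3a2, Cyp4f14, Cyp4f15, Cyp4f13, Cyp4a32, Cyp4a12b and Cyp4a31. The neighbours Cyp4f14 and Cyp4f15, Cyp4f13 and Cyp4a32, and Cyp4a32 and Cyp4a12b did not differ beyond their counting intervals. The other neighbours did, although the spread between mice, which is not known here, may be wider.

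**Figure D3:**
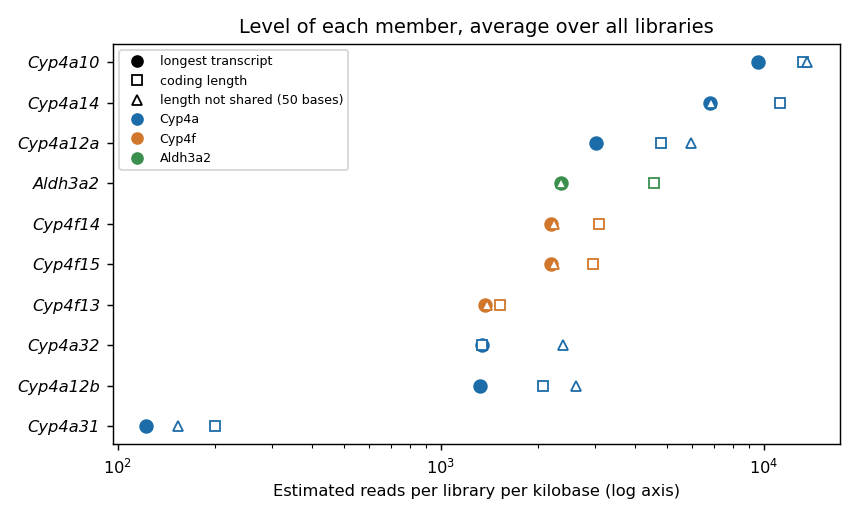
Estimated reads per library per kilobase (horizontal log axis) for each member, averaged over the 8 libraries, with length taken as the longest transcript (filled), the coding sequence (square) or the part not shared with another gene over 50 bases (triangle). Cyp4a10, Cyp4a14 and Cyp4a12a are the top 3 and Cyp4a31 the lowest under each length.

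How far reads of these genes can be told apart differs between the members. The study's read length is not stated here, so exact sharing of transcript stretches was counted at 50, 100 and 150 bases on all annotated transcripts. Stretches were counted singly. The libraries are paired-end, so a fragment may be told apart by its other mate even where a stretch is shared. At 50 bases, 48.9% of Cyp4a12a stretches and 49.4% of Cyp4a12b stretches also occurred in another gene, which was the other of the pair. The share was 43.8% in Cyp4a32, 29.8% in Cyp4a10 and 20.6% in Cyp4a31, where a small part lay in genes outside the family such as Clasp1 (1.39%). Cyp4a32 shared 32.6% of its stretches with Cyp4a10 and 24.1% with Cyp4a31. At 150 bases the share was 25.6% in Cyp4a12a and 25.9% in Cyp4a12b, and between 3.54% and 6.96% in the other 3. Cyp4a14 shared 0.235% at 50 bases, the Cyp4f genes 1.11% to 2.39%, and none of these 4 shared any at 100 bases. Aldh3a2 shared none at the 3 lengths.

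The levels of Cyp4a10, Cyp4a12a, Cyp4a12b, Cyp4a31 and Cyp4a32 are therefore uncertain, because the counting may have dropped or split reads that fit several copies, and its setting is not stated. Unshared length is the longest transcript scaled by the percent of stretches not shared, and all counted reads are kept. Levels on that length hold only if reads from shared stretches were dropped, and are too high if such reads were kept or split. Per kb of unshared length at 50 bases, Cyp4a12b was at 2615 in place of 1322 reads per kb. Cyp4a32 was at 2382 in place of 1338, so that both stood above Aldh3a2 at 2363. Cyp4a10 went to 13635 and Cyp4a12a to 5930. Cyp4a31 stayed the lowest at 154.

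**Figure D4:**
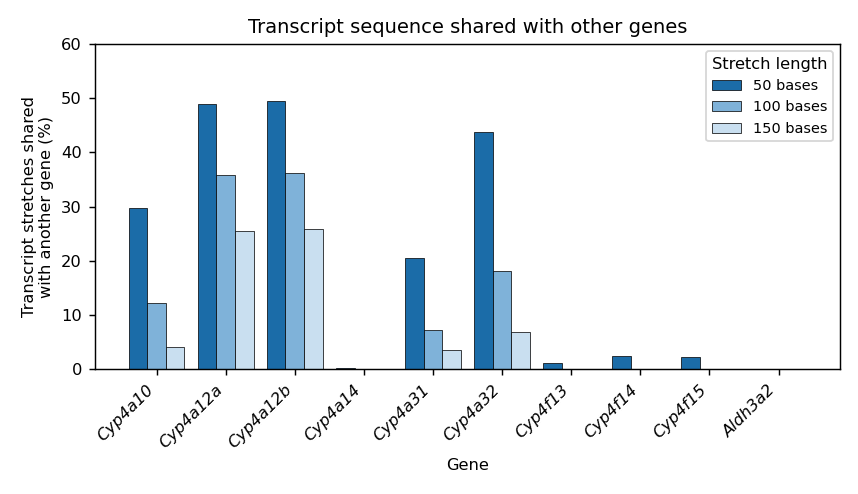
Percent of all stretches of 50, 100 or 150 bases in each member's annotated transcripts that also occur in a transcript of another gene. The bars reach 49.4% in Cyp4a12b at 50 bases and are at or near 0 for Cyp4a14, the Cyp4f genes and Aldh3a2.

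Of 13 other Cyp4 genes in the table, 11 had reads and 1 was as abundant as the members. Cyp4v3, the counterpart of the human gene mutated in Bietti crystalline dystrophy, had an average log2 CPM of 8.82 and 3263 reads per kb, between Cyp4a14 and Cyp4a12a. Cyp4b1 had 115 reads per kb and Cyp4f17 had 94.5, close to Cyp4a31 at 122. Cyp4f16 had 15.3, Cyp4f41-ps 12.2, Cyp4f18 6.77 and Cyp4f39 2.95 reads per kb. Cyp4a30b, Cyp4f40, Cyp4b1-ps2 and Cyp4f37 had under 1 estimated read per library. Cyp4x1 and Cyp4a29 were at the lowest value of the table, without reads.

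Most genes listed for the steps before and after the hydroxylation were in the top 10% as well. The 4 genes listed as electron donors were all in the top 10%, from Cyb5b at 2072 to Cyb5a, a cytochrome b5, at 19430 reads per kb. Whether each of them, Cyb5b included, serves the microsomal Cyp4 enzymes was not tested. Por, the reductase on which microsomal P450 enzymes depend, had 8914 reads per kb, near Cyp4a10. Of 10 other alcohol and aldehyde dehydrogenases, 9 had reads and 6 were in the top 10%. Whether each of these acts in fatty acid omega-oxidation was not tested either. Adh1, the main liver alcohol dehydrogenase, was the highest at 34501 reads per kb, and Aldh3a1, which belongs to the same family as Aldh3a2, the lowest of those with reads at 0.499. Aldh3b1 had 27.2 reads per kb and Aldh3b2 none, so that Aldh3a2 held nearly all reads of these 4 Aldh3 genes.

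All 11 genes of peroxisomal oxidation had reads and 9 were in the top 10%, from the thioesterase Acot4 at 83.4 to the thiolase Acaa1b at 19636 reads per kb. Their median was 3913 reads per kb, against 2188 for the members and 38.4 for the 17958 genes with reads and a length. Of the 8 genes that the study lists as microsomal oxidation, 7 had reads and 6 were in the top 10%, from Aldh3a1 at 0.499 to Cyp4a10 at 9569 reads per kb. The study drew up that list from known activities of PPARɑ target genes. All 5 nuclear receptors on the list of regulators were in the top 10%. Ppara itself had 2670 reads per kb, Hnf4a was the highest at 5122 and Nr1i2, which encodes PXR, the lowest at 1361.

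**Figure D5:**
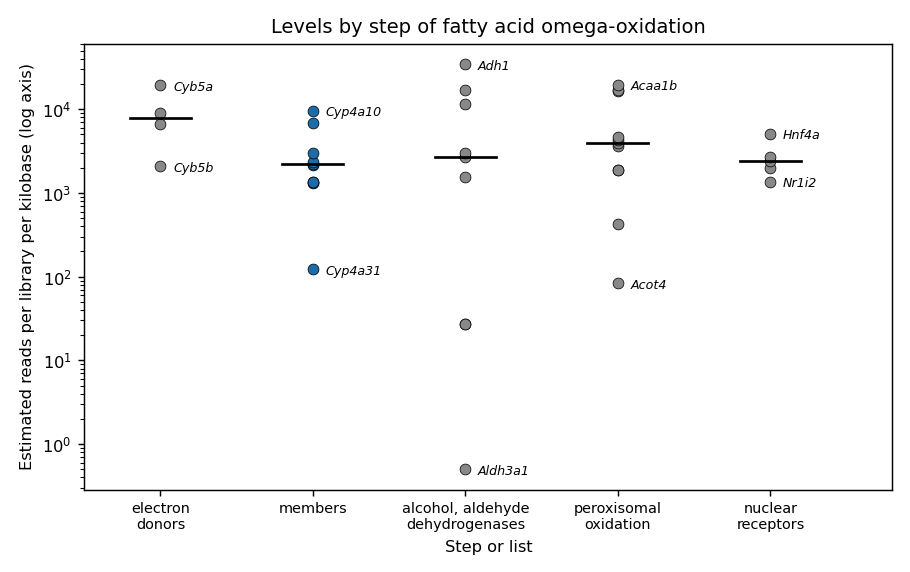
Estimated reads per library per kilobase (vertical log axis) for genes with reads, by pathway step or list, averaged over the 8 libraries. The nuclear receptors are a list of regulators and not a step. Points are genes, the black line is the median of each list, and the highest and lowest genes are named. The members (blue) have a median of 2188 and the peroxisomal genes one of 3913.

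The libraries carried the markers of liver. All 10 hepatocyte markers were in the top 10% and held 12.2% of all reads, with Alb highest and Cps1 lowest per kb. All 5 markers of cholangiocytes, of Kupffer cells, of endothelial cells and of stellate cells had reads, at medians of 32.2, 147, 105 and 53.7 reads per kb. Kidney, where Cyp4a genes are also expressed, left little trace, since 4 of 5 proximal tubule markers had under 10 estimated reads per library. Of 5 pancreas markers only Cela1 had reads. The table lists 4 intestine markers, of which 3 had reads. Fabp2 had 2452 reads per kb, while Vil1 and Lct had under 10 estimated reads per library and Alpi had none. In bulk liver, fewer cells of a type and less RNA per cell cannot be told apart.

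Promoter sequences (300-base windows around the annotated start, GRCm38.p6, from RefSeq) were found for 5 of the 10 genes (Cyp4a32, Cyp4f13, Cyp4f14, Cyp4f15 and Aldh3a2). The nuclear receptor core AGGTCA was searched on both strands and occurred in 0 of these 5, against 18.1% of 27025 genes. A direct repeat of that core with 1 base between the copies, the DR1 form that PPARɑ and RXR bind, contains the core and occurred in 0 of the 5 and in 0.0481% of all genes. TATAAA occurred in Cyp4a32 and in 15.7% of all genes. These matches describe the letters of these windows only.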

How the data were processed

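RNA-seq of 8 livers was analysed (4 wild-type, 4 V227A). Per the labels and methods, the authors made stranded poly-A paired-end libraries and used Trimmomatic, FastQC, RNA STAR (GRCm38), featureCounts and edgeR. Versions, annotation, strand setting, treatment of multiply aligned reads and read length are not given in the sources used here. The deposited table lists 27179 genes with an average log2 CPM over all libraries, made by the authors with edgeR. Its other 4 columns (log2 fold change, F, p and FDR) are the authors' own comparison of the genotypes and were not used.

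Reads were estimated from the average log2 CPM after subtraction of a prior count of 2. The lowest value, -3.78, gave a mean effective library size of 27474000 reads. Genes with 1 read (918) placed the prior count between 1.96 and 2.03, and the estimated totals of 2883 genes with 1 to 8 reads were whole to within 0.1 in 99.8% of cases. The depth of each library is unknown. Lengths and coding sequences came from GENCODE vM21, the longest transcript being used, and 94.8% of genes with reads had a length. Gene positions and overlapping genes came from the RefSeq annotation of GRCm38.p6, and strands from GENCODE vM21. The planned test between genotypes needs counts per library, which the table does not hold. With the authors' comparison left unused, that comparison gives no value. Poisson and Wilson intervals (95%) cover counting error only. Ranges after ratios divide opposite ends of the Poisson intervals of both genes, and are not 95% intervals. The conversion was also run on counts simulated from its own estimates with the same prior count. That run could not test the prior count or the depth of each library. All 10 members are named, as are the other Cyp4 genes with reads. Lists are given by counts and their highest and lowest genes, and Por, Ppara, Aldh3b1, Aldh3b2, Fabp2, Vil1, Lct, Alpi and Clasp1 were named after their values were seen. The members and lists were chosen with earlier results of these data known. Python 3.11.15, pandas 2.3.3, numpy 2.4.6, scipy 1.17.1, Biopython 1.88 and matplotlib 3.10.9 were used.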

Additional observations from a re-analysis of the deposited data

How the results depend on the processing

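All 10 members also had at least 10 estimated reads in all. Their share of reads was 0.252% without subtraction of the prior count and 0.253% among genes with an average log2 CPM of at least 0. Of the members, 9 were in the top 10% of every gene of the table and by reads per kb, but 7 among genes with an average log2 CPM of at least 0. The highest member was Cyp4a10 under each length tried, at 13216 reads per kb of coding length and, with lengths chosen after seeing the data, at 13635, 10893 and 9971 reads per kb of length unshared over 50, 100 and 150 bases. The order of Cyp4a12b, Cyp4a32 and Cyp4f13 changed with the length. By length unshared over 50 bases, Cyp4a12b and Cyp4a32 also stood above Aldh3a2, Cyp4f14 and Cyp4f15. That order assumes that reads from shared stretches were dropped in the counting. No paired analysis was possible because the table holds no values per library, and for the same reason no replicate was left out. No test between genotypes was run, since the authors' comparison was not used and counts per library are not in the table. A comparison by protein sequence was not run, and coding sequence was compared in its place. Depth does not limit the members, of which Cyp4a31 has the widest counting interval (3.98% to either side).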
